A study of Macaca fascicularis with 56 samples.

Results

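RAB proteins are small GTPases that give intracellular membranes their identity and direct vesicles between them. The RAB genes measured here were taken from whole blood of cynomolgus macaques (Macaca fascicularis) read on a human genome array. Members were the probe sets whose only gene symbol was RAB followed by a number and, where present, a letter from A to D. Of the 57 such genes, 54 were kept among the 16020 genes tested, each read by the probe set with the highest mean level, provided that it lay above the array's median on at least 4 of the 56 arrays. The genes left out were RAB3B, above the array median on 2 arrays, and RAB38 and RAB42, above it on 0 arrays.

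The study followed blood gene expression after an endotoxin challenge and treatment, in 14 animals sampled at 0, 2, 4 and 8 h. The arms were LR12 (6 animals), peptide control (4 animals) and vehicle (4 animals). LR12 is a peptide derived from the platelet receptor TLT-1 that is known to block TREM-1, an amplifying receptor on neutrophils and monocytes, and the series title gives LR12-scrambled as the other peptide. The labels used here do not state whether the vehicle animals received endotoxin, at what time endotoxin or peptide was given relative to 0 h, or the age and sex of the animals. All groups were blood of the same species with no strain or genotype given. Within an arm, a later hour therefore differs from 0 h by challenge, treatment and repeated sampling together, and these cannot be told apart.

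A RAB protein cycles between a GDP-bound form held in the cytosol and a GTP-bound form on a membrane. Exchange factors load GTP, GTPase-activating proteins end the active state, and effectors such as tethers and motor adaptors bind the active form. Different RABs work at different stations, from the endoplasmic reticulum and Golgi through early and recycling endosomes to lysosomes, phagosomes and secretory granules. In neutrophils and monocytes this traffic carries phagocytosed microbes to lysosomes and brings granules to the surface.

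Levels below are log2 of the array intensity, and changes are differences of mean log2 intensity with the standard error (SE) from limma. A member was called when its Benjamini-Hochberg adjusted p, over all 16020 genes of a comparison, was below 0.05. Probes were designed on human sequence, so levels are compared between samples of 1 gene and not between genes. Of the 54 members, 37 lay above the array median on all 56 arrays, and 6 (RAB40A, RAB23, RAB17, RAB20, RAB4B and RAB36) had a mean below the mean array median of 4.07. The members nearest to the filter were RAB36 on 4 arrays, RAB4B on 7 and RAB20 on 8.

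The arrays fell into 24 with high and 32 with low signal of the poly-A spike controls, separated by a gap of 0.62 on the log2 scale. The high arrays numbered 1, 1, 2 and 3 at 0, 2, 4 and 8 h in the LR12 arm, 3, 1, 4 and 3 for the peptide control, and 2, 0, 2 and 2 for vehicle. With the array set as a term of its own, 31.5% of the members differed between the sets, against 28.8% of all genes. RAB8B (1.24), RAB21 (1.05) and RAB2B (0.82) were among 10 members higher in the high set, and RAB9B (−0.90) was among 7 lower. In the blood-cell markers, the median level over 9 neutrophil granule genes averaged 10.85 at 2 h in LR12 animals, against 5.47 at 0 h, and no LR12 animal at 2 h was as low as the highest at 0 h (6.74). Gene by gene, the median change of these granule genes was smaller, at 2.66, with 7 called higher and 0 lower. The median over 11 T cell genes was 7.12 at 2 h in LR12 animals and 8.45 at 0 h. That over 10 monocyte genes averaged 7.94 at 2 h, against 10 at 0 h, and 8.82 and 10.26 at the later hours in LR12 animals. Taken gene by gene, these monocyte markers were split, with 3 called higher and 4 lower at 2 h (median change −0.87). At 4 h, 5 were called higher and 3 lower (median change 0.81), and at 8 h 6 were higher and 1 lower (0.85). Of the granule genes, ELANE was above the array median on 5 arrays. In bulk blood, fewer cells of a type and less RNA per cell cannot be told apart. The part of these markers in the results below was not tested.

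One animal of each control arm stood apart from its group. The peptide control animal Y31305 had a granule marker level of 5.61 at 2 h, while the other 3 peptide control animals lay between 10.23 and 11.33. The vehicle animal Y31303 had a level of 11.17 at 2 h, while the other 3 vehicle animals lay between 5.56 and 7.22. Counts of members called between arms are therefore given with and without these animals. All-gene shares with an animal left out are not given, so such counts show dependence on single animals and are not set against a background.

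In LR12-treated animals more RAB genes rose than fell at each hour, whereas among all genes falls outnumbered rises, except at 8 h with arrays centred on their medians, where 2198 genes rose and 1574 fell. At 2 h against 0 h, 16 of the 54 members (29.6%) were called higher, against 10.1% of all genes, and 10 (18.5%) were called lower, against 21.9% of all genes. At 4 h, 18 members (33.3%) were higher and 8 (14.8%) lower, against 10.8% and 26% of all genes. At 8 h, 15 members (27.8%) were higher and 5 (9.26%) lower, against 8.65% and 20.4% of all genes. The median change over the 54 members was 0.20 at 2 h, 0.00 at 4 h and 0.16 at 8 h, beside −0.18, −0.29 and −0.27 over all genes. With arrays centred on their medians the all-gene median change at 4 h was −0.022, and 2473 of all genes rose and 2691 fell there, against 1731 and 4168 without centring. After centring, 15, 20 and 17 members were called higher and 8, 6 and 3 lower at the 3 hours. At 2 h 1661 of all genes rose and 2999 fell after centring. Within the low-control arrays alone, 16, 17 and 15 members were called higher and 9, 8 and 3 lower at the 3 hours. Over all genes, these arrays gave 1663, 1588 and 1156 higher and 3621, 3633 and 2499 lower.

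The members that rose at all 3 hours were RAB10, RAB15, RAB25, RAB27A, RAB31, RAB3D, RAB43, RAB5A and RAB7A, and those that fell at all 3 hours were RAB30, RAB3C and RAB9B. By role, of 17 genes of early and recycling endosomes 8 rose and 2 fell at 2 h, 8 rose and 1 fell at 4 h, and 5 rose and 0 fell at 8 h. Of 12 genes of late endosomes, lysosomes, phagosomes and autophagy, 3 rose and 4 fell at 2 h, while 1 rose and 2 fell at 4 h, and 2 rose and 1 fell at 8 h. Of 11 genes of endoplasmic reticulum and Golgi traffic, 3 rose and 1 fell at 2 h, 5 rose and 2 fell at 4 h, and 4 rose and 2 fell at 8 h. Among 9 genes of secretory granules and exocytosis the counts were 2 and 1, 3 and 2, and 3 and 1, and among 5 other or less studied genes 0 and 2, 1 and 1, and 1 and 1. These counts stand beside the shares of all genes given above for each hour, and no class was tested against them.

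**Figure D1:**
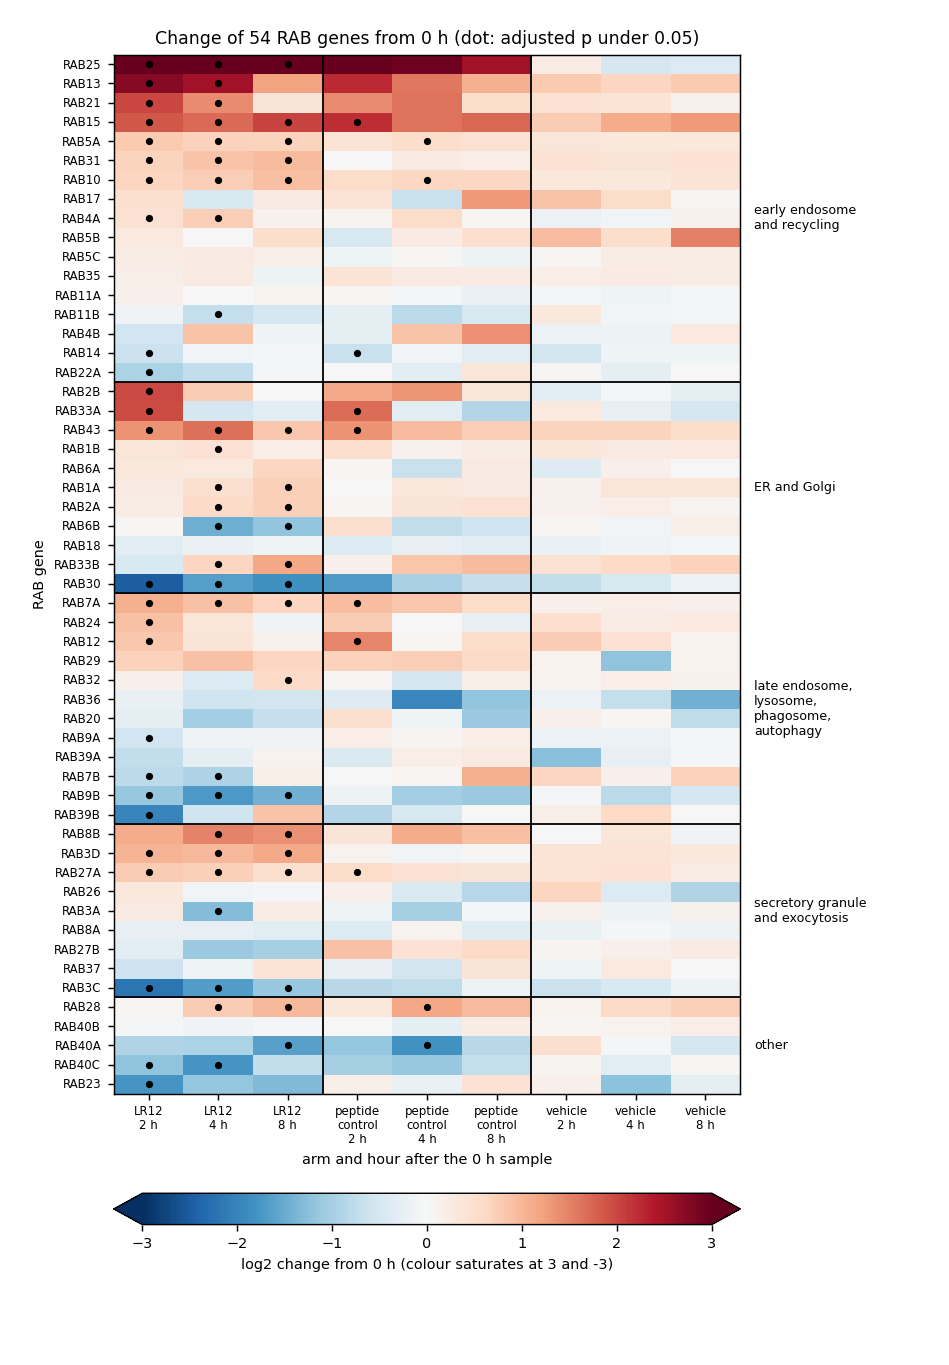
Change of each of the 54 RAB genes from 0 h at 2, 4 and 8 h in the LR12, peptide control and vehicle arms, as a difference of mean log2 intensity, with the genes grouped by role. Dots mark changes called at an adjusted p below 0.05. They number 26, 26 and 20 for LR12 and 7, 4 and 0 for the peptide control at the 3 hours, and vehicle has 0 throughout.

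RAB25, a close relative of RAB11A that is known for recycling in epithelia, had the largest changes of any member in the LR12 arm. Its levels at 2 h ranged between 9.60 and 10.71 in LR12 animals (median 9.83), against 3.33 to 5.63 at 0 h (median 4.40). The groups did not overlap, and the change was 5.43 ± 0.99 (adjusted p = 2.92e-05, higher in 6 of 6 animals). It was 4.37 ± 0.99 at 4 h and 3.41 ± 0.99 at 8 h, again with every LR12 animal above its own value at 0 h. RAB25 lay above the array median on 46 of the 56 arrays.

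RAB13, which works at cell junctions and in recycling, rose by 2.73 ± 0.65 at 2 h (adjusted p = 0.000906) and by 2.52 ± 0.65 at 4 h in LR12 animals. Its levels at 2 h ranged between 7.34 and 9.73 (median 8.54), against 5.09 to 6.79 at 0 h (median 5.91). All 6 animals were higher at 8 h too, but the change of 1.20 ± 0.65 was not called (adjusted p = 0.169). RAB21, which follows integrins through early endosomes, was 8.88 to 10.60 at 2 h (median 9.44) and 7.12 to 7.96 at 0 h (median 7.65). Its change was 2.00 ± 0.44 at 2 h (adjusted p = 0.000368) and 1.41 ± 0.44 at 4 h, and 0.40 ± 0.44 at 8 h, which was not called. The 4 h call of RAB21 was lost with the mean of its probe sets (0.39, limma adjusted p = 0.245). Within the low-control arrays it was lost too (1.05, adjusted p = 0.0524). RAB13 and RAB21 thus separated 2 h from 0 h in every LR12 animal but lost their call by 8 h.

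RAB5A, which marks early endosomes and young phagosomes, moved less but with little spread. At 2 h the LR12 animals had 12.30 to 12.57 (median 12.43), against 10.94 to 12.05 at 0 h (median 11.78). The groups did not overlap at any later hour, and the changes were 0.78, 0.69 and 0.68 at 2, 4 and 8 h, each with an SE of 0.12 (adjusted p = 2.17e-06 at 2 h). RAB10, which carries recycling and Golgi-derived vesicles to the plasma membrane and acts in Toll-like receptor 4 delivery in mouse macrophages, gained 0.65, 0.75 and 0.90 at the 3 hours, with an SE of 0.15 each. Its levels at 8 h were 12.33 to 12.69 (median 12.54), against 11.31 to 11.84 at 0 h (median 11.69), again without overlap.

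RAB15, linked to endocytic recycling, rose by 1.86 ± 0.49, 1.71 ± 0.49 and 2.04 ± 0.49 at 2, 4 and 8 h. It had 6.83 to 8.23 at 2 h in LR12 animals (median 7.31) and 3.67 to 6.76 at 0 h (median 5.65). RAB31, which sorts cargo between the Golgi and endosomes, rose by 0.67 ± 0.27, 0.85 ± 0.27 and 0.95 ± 0.27. Its 2 h call was at the edge (adjusted p = 0.049) and its groups overlapped, with 11.62 to 13.38 at 2 h and 11.33 to 12.96 at 0 h, although all 6 animals went up. RAB4A, of rapid recycling, rose by 0.45 ± 0.17 at 2 h and by 0.75 ± 0.17 at 4 h, and its difference of 0.13 ± 0.17 at 8 h was not called.

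RAB14, which links recycling endosomes, the Golgi and phagosomes, fell by 0.65 on the log2 scale at 2 h (SE 0.15, adjusted p = 0.000718). Its levels were 9.93 to 11.02 at 2 h in LR12 animals (median 10.36) and 10.85 to 11.49 at 0 h (median 10.92), with 5 of 6 animals down. It was not called at 4 h (−0.08) or at 8 h (−0.03). With the mean of its probe sets, the 2 h change of RAB14 was −0.30 and was not called (limma adjusted p = 0.113). Among the early and recycling endosome genes, RAB22A was the other one called lower at 2 h, and RAB11B the one called lower at 4 h. RAB11A, the main recycling-endosome RAB, was not called at any hour in any arm: its change in LR12 animals was 0.14 ± 0.10 at 2 h, 0.00 ± 0.10 at 4 h and 0.10 ± 0.10 at 8 h.

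**Figure D2:**
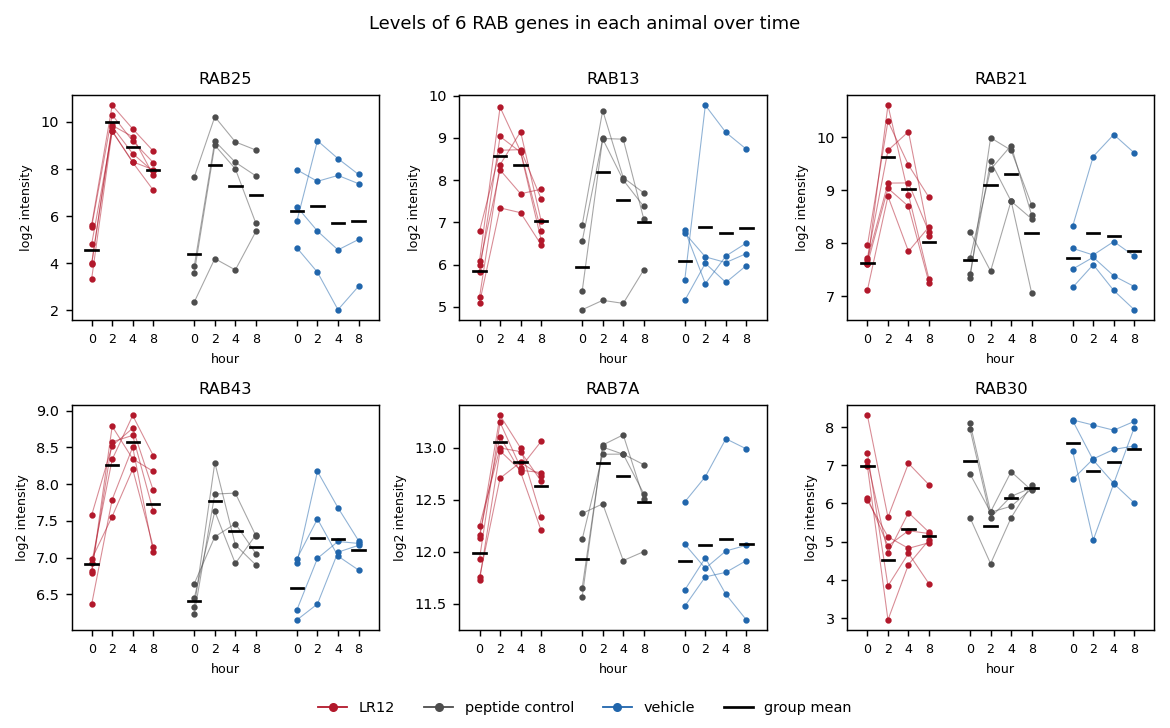
Log2 intensity of RAB25, RAB13, RAB21, RAB43, RAB7A and RAB30 in every animal at 0, 2, 4 and 8 h (x axis) in the LR12 (left), peptide control (middle) and vehicle (right) arms; lines join the values of 1 animal. RAB25 in LR12 animals lay at 9.60 to 10.71 at 2 h and 3.33 to 5.63 at 0 h, and RAB30 moved the other way.

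Among genes of late endosomes and lysosomes, RAB7A, which drives fusion of late endosomes and phagosomes with lysosomes, rose at each hour in LR12 animals. It had 12.71 to 13.31 at 2 h (median 13.05) and 11.72 to 12.25 at 0 h (median 12.03), so the groups did not overlap. The changes were 1.07 ± 0.22 at 2 h (adjusted p = 0.000136), 0.87 ± 0.22 at 4 h and 0.64 ± 0.22 at 8 h. The 8 h call did not hold after quantile normalization (0.49), with the mean of its probe sets (0.45), or without Y31309, Y31311 or Y31314. Its relative RAB7B went the other way early on, with changes of −0.79 ± 0.30 at 2 h and −0.93 ± 0.30 at 4 h, both called, and 0.18 ± 0.30 at 8 h (adjusted p = 0.696). RAB12, linked to lysosomal sorting of receptors, rose by 0.81 ± 0.30 at 2 h (adjusted p = 0.0342).

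RAB9B, a relative of the late-endosome-to-Golgi RAB9A, fell at each hour in LR12 animals. Its levels were 2.88 to 5.46 at 4 h (median 3.96) and 5.44 to 6.40 at 0 h (median 5.89), which overlapped narrowly. The change was −1.14 ± 0.41 at 2 h, −1.73 ± 0.41 at 4 h (adjusted p = 0.000578) and −1.44 ± 0.41 at 8 h. Within the low-control arrays the 8 h change of RAB9B was −0.85 and was not called (limma adjusted p = 0.126). RAB9A itself was called lower at 2 h. RAB32, which acts with RAB38 in lysosome-related organelles, was called at 8 h alone, by 0.58 ± 0.20 (adjusted p = 0.0225, 6 of 6 animals), and at 4 h it was −0.42 ± 0.20 (adjusted p = 0.0928). RAB20, which associates with maturing macrophage phagosomes, was read near the floor of the arrays, 2.44 to 4.65 at 2 h in LR12 animals and 3.12 to 4.41 at 0 h, and was not called.

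The secretory genes differed among themselves. RAB27A, which tethers secretory granules and is mutated in Griscelli syndrome, rose by 0.76 ± 0.12 at 2 h (adjusted p = 2.11e-06), by 0.72 ± 0.12 at 4 h and by 0.49 ± 0.12 at 8 h. Its LR12 levels were 12.66 to 13.16 at 2 h (median 12.93) and 11.93 to 12.55 at 0 h (median 12.13), without overlap. RAB3D, of secretory granule maturation, rose by 1.02 ± 0.29, 0.96 ± 0.29 and 1.14 ± 0.29, and its groups did not overlap at 4 and 8 h. With the mean of its probe sets, its change was 0.31 at 2 h (adjusted p = 0.476) and 0.61 at 4 h (adjusted p = 0.0996). RAB8B, which supports transport to the plasma membrane, had 9.91 to 11.16 at 2 h and 8.88 to 9.89 at 0 h in LR12 animals. Its change of 1.12 ± 0.48 at 2 h was not called (adjusted p = 0.0711), while 1.48 ± 0.48 at 4 h and 1.36 ± 0.48 at 8 h were. The 8 h call of RAB8B was lost within the low-control arrays (0.88, limma adjusted p = 0.197). With the mean of its probe sets it was lost too (1.04, adjusted p = 0.122).

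RAB3C, a synaptic vesicle RAB in neurons, fell by 2.19 at 2 h and by 1.67 at 4 h on the log2 scale (SE 0.45 each). Its levels at 2 h were 3.43 to 5.96 (median 4.64), against 5.45 to 8.08 at 0 h (median 6.98), a narrow overlap. At 8 h the change of −1.13 ± 0.45 had an adjusted p of 0.0494. RAB3A, another synaptic RAB, was called lower at 4 h alone (−1.29 ± 0.33, adjusted p = 0.0015, 0 of 6 animals higher). RAB8A, of exocytosis and cilium traffic, changed by −0.24 ± 0.16 at 2 h and RAB37, of mast cell and macrophage secretion, by −0.62 ± 0.31, and neither was called against 0 h.

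Golgi genes were split as well. RAB43, which acts in transport through the Golgi and in phagosome maturation, rose by 1.35 ± 0.24 at 2 h, 1.66 ± 0.24 at 4 h (adjusted p = 6.63e-07) and 0.81 ± 0.24 at 8 h. Its levels at 4 h were 8.20 to 8.94 in LR12 animals (median 8.58) and 6.36 to 7.58 at 0 h (median 6.87), without overlap. RAB30, of Golgi structure and autophagy of streptococci in human cells, fell at all 3 hours, with changes of −2.47 ± 0.48 at 2 h (adjusted p = 6.19e-05), −1.66 ± 0.48 at 4 h and −1.85 ± 0.48 at 8 h. It had 2.95 to 5.64 at 2 h (median 4.79) and 6.08 to 8.30 at 0 h (median 7.04), with 0 of 6 animals higher. RAB1A, which takes vesicles out of the endoplasmic reticulum, was 0.26 ± 0.12 at 2 h (adjusted p = 0.0846) and rose by 0.49 ± 0.12 at 4 h and by 0.72 ± 0.12 at 8 h (adjusted p = 1.26e-05). RAB6B, a Golgi RAB best known from brain, changed by 0.03 ± 0.42 at 2 h and then by −1.48 ± 0.42 at 4 h and −1.18 ± 0.42 at 8 h, both called. Within the low-control arrays the 8 h change of RAB6B was −0.52 (adjusted p = 0.462), and with the array set as a term it was −0.99 (adjusted p = 0.0599).

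Among the less studied genes, RAB23, an inhibitor of Hedgehog signalling, was called lower at 2 h, with −0.14 to 4.37 in LR12 animals (median 2.67) and 3.64 to 4.81 at 0 h (median 4.45), a change of −1.76 ± 0.58 (adjusted p = 0.0163) close to the floor. RAB40C, of a subfamily that recruits ubiquitin ligases, fell by 1.20 at 2 h and by 1.77 at 4 h (SE 0.45 each), and its relative RAB40A by 1.63 at 8 h (SE 0.41, adjusted p = 0.00224). RAB28, which is linked to cilia in photoreceptors, changed by 0.06 ± 0.28 at 2 h and rose by 0.76 ± 0.28 at 4 h and by 0.98 ± 0.28 at 8 h. RAB1B at 4 h and RAB2A at 4 and 8 h were called higher as well.

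**Figure D3:**
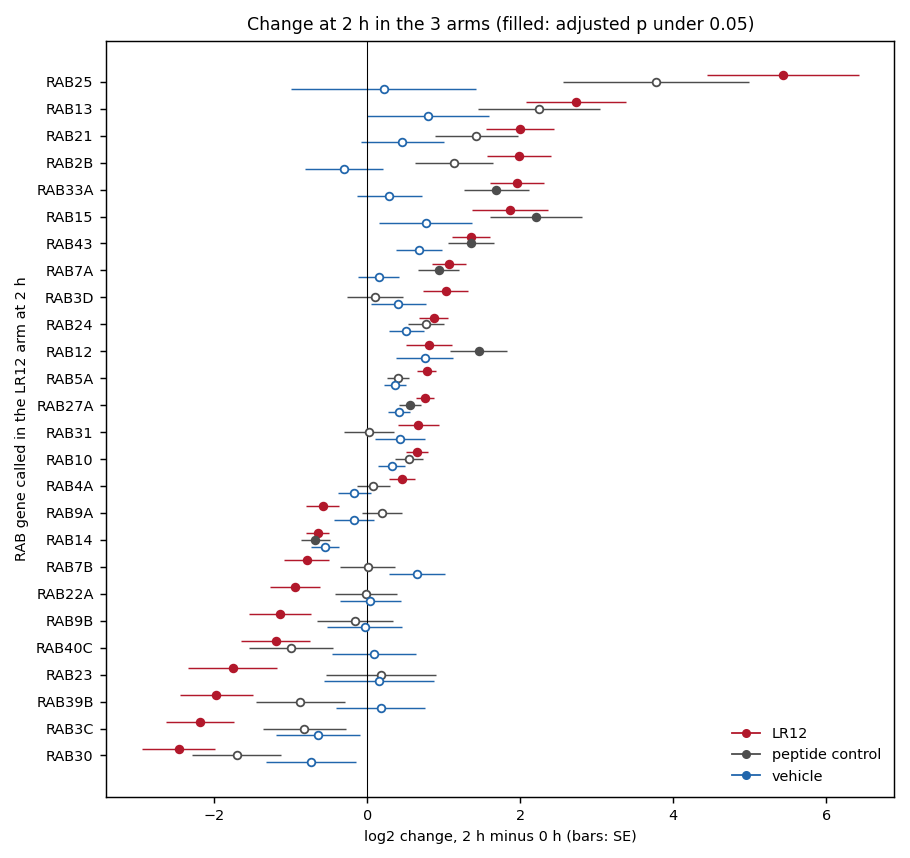
Change at 2 h from 0 h, in mean log2 intensity, of the 26 RAB genes called in the LR12 arm, shown for the LR12, peptide control and vehicle arms, with bars of 1 SE. In the LR12 arm the changes ran between −2.47 (RAB30) and 5.43 (RAB25).

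In the LR12 arm several genes peaked or dipped at 2 h and had turned by 8 h. The comparison of 8 h with 2 h called 14 members (25.9%), 9 higher and 5 lower, against 19.4% of all genes. This comparison was added after the data had been seen. Over the same interval 7 of 10 monocyte markers were called higher and 1 lower (median change 2.06), 7 of 8 erythroid markers lower (median −1.30) and 5 of 10 platelet markers lower (median −1.10). Their part in the turns of the RAB genes was not tested. RAB33A, a Golgi RAB that recruits the autophagy protein ATG16L1, had 6.41 to 8.01 at 2 h (median 7.41), against 4.97 to 6.23 at 0 h (median 5.14) and 4.59 to 5.73 at 8 h. The 2 h group overlapped neither of the others, the change from 0 h was 1.96 ± 0.35 at 2 h (adjusted p = 1.71e-05), and the difference of 8 h from 2 h was −2.27 ± 0.35 (adjusted p = 1.82e-06). RAB2B, of traffic between the endoplasmic reticulum and Golgi, followed the same course, with 1.98 ± 0.42 at 2 h against 0 h, and −1.98 ± 0.42 at 8 h against 2 h. RAB24, which acts in autophagy, was 0.87 ± 0.19 higher at 2 h than at 0 h and 0.97 lower at 8 h than at 2 h (−0.97 ± 0.19, adjusted p = 0.000124). RAB21 fell by 1.60 on the log2 scale between these hours (SE 0.44, adjusted p = 0.00649).

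Other genes dipped first. RAB39B, a neuronal and endosomal RAB, had 3.21 to 5.73 at 2 h in LR12 animals (median 4.09), against 5.25 to 7.2 at 0 h (median 6.41), a change of −1.97 ± 0.47 (adjusted p = 0.000923). At 8 h it had 5.88 to 7.85 (median 7.35), which was 2.82 ± 0.47 above 2 h (adjusted p = 1e-05) with no overlap. RAB33B, a relative of RAB33A at the Golgi, ran the other way round in time. Its change from 0 h was −0.45 ± 0.25 at 2 h (adjusted p = 0.18), 0.64 ± 0.25 at 4 h and 1.16 ± 0.25 at 8 h, and 8 h exceeded 2 h by 1.61 ± 0.25 (adjusted p = 2.36e-06). RAB37 gained 1.03 ± 0.31 and RAB7B 0.97 ± 0.30 between 2 and 8 h. RAB6B was the other gene called lower, at −1.20 ± 0.42, a call lost with centred arrays (−0.98) and within the low-control arrays (−0.97), and RAB14, RAB1A, RAB22A, RAB28 and RAB2A were also called higher. With the animal as a block, RAB25 (−2.02, adjusted p = 0.0347), RAB13 (−1.53, adjusted p = 0.0232), RAB12 and RAB27A were called lower too, and RAB3C (1.05) and RAB9A (0.48) higher. With the mean of its probe sets RAB7B changed by 0.06 and RAB2A by 0.21 between 2 and 8 h, and neither was called.

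**Figure D4:**
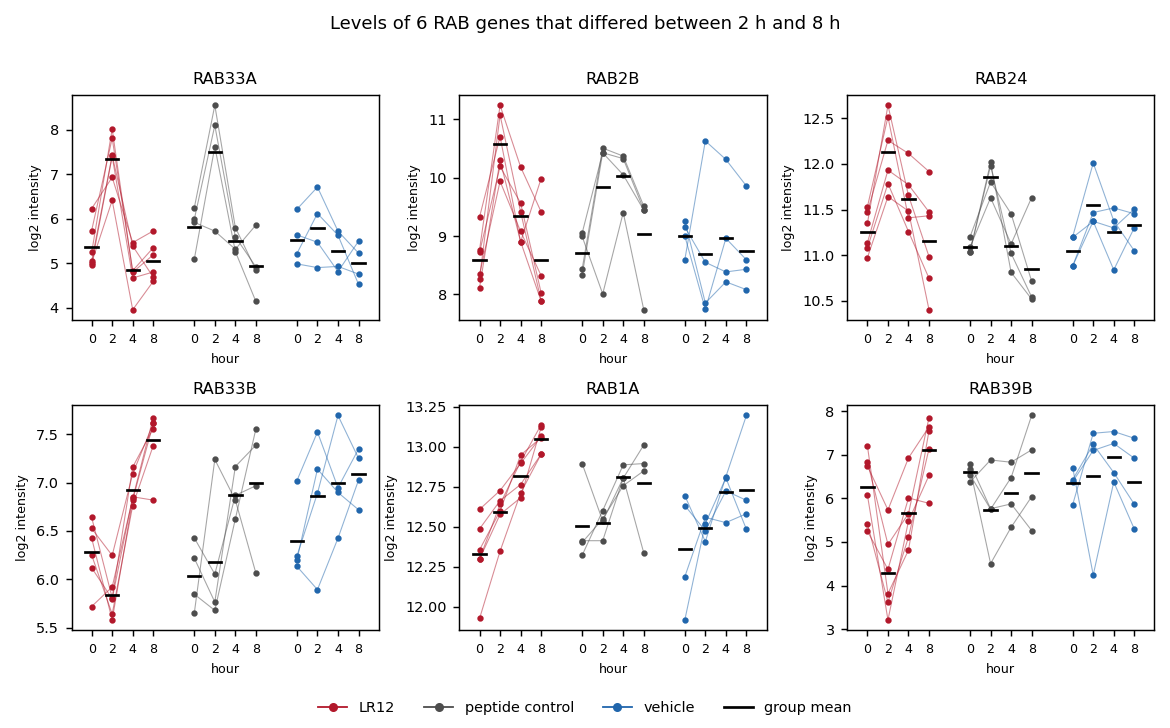
Log2 intensity of RAB33A, RAB2B, RAB24, RAB33B, RAB1A and RAB39B in every animal at 0, 2, 4 and 8 h in the LR12 (left), peptide control (middle) and vehicle (right) arms; lines join the values of 1 animal. RAB33A in LR12 animals had medians of 5.14 at 0 h and 7.41 at 2 h and at most 5.73 at 8 h, and RAB39B had medians of 6.41, 4.09 and 7.35.

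The peptide control arm had fewer calls. At 2 h, 6 members (11.1%) were higher and 1 (1.85%) was lower, against 2.2% and 1.1% of all genes. At 4 h, 3 members (5.56%) were higher and 1 (1.85%) lower, against 1.9% and 2.95% of all genes. At 8 h, 0 members were called, against 0.487% higher and 0.243% lower among all genes by limma, and 13 members had an unadjusted p below 0.05. With the animal as a block, 12 members were higher and 2 lower at 2 h, beside 700 and 523 of all genes. At 4 h the block gave 12 higher and 4 lower, beside 772 and 1677 of all genes. At 8 h it gave 6 higher and 0 lower, beside 381 and 307. With arrays centred on their medians, the 4 h count was 11 higher and 0 lower, beside 698 higher and 105 lower over all genes. The LR12 and peptide control arms share no arrays, and the 7 members called at 2 h in peptide control animals (100%) were called in the same direction among the 26 of the LR12 arm (26.9%). Over all genes, 92.4% of the peptide control calls and 9.52% of the LR12 calls at 2 h were shared in that way. At 4 h, 3 of the 4 peptide control calls (75%) and 11.5% of the 26 LR12 calls were shared, against 87% and 11.4% over all genes, and at 8 h 0 members were called in the peptide control arm.

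At 2 h the called genes of the peptide control arm were RAB12, RAB15, RAB27A, RAB33A, RAB43 and RAB7A, higher, and RAB14, lower. RAB43 had 7.63, 7.87, 7.28 and 8.29 at 2 h, against 6.45, 6.23, 6.64 and 6.32 at 0 h, without overlap, a change of 1.36 ± 0.30 (adjusted p = 0.00543). RAB12 had 9.95, 9.63, 9.77 and 9.96 at 2 h, against 8.20, 7.84, 9.09 and 8.36 at 0 h, a change of 1.46 ± 0.37 (adjusted p = 0.0167). RAB15 changed by 2.21 ± 0.60 (adjusted p = 0.0275) with all 4 animals higher. RAB33A had 5.72, 7.62, 8.10 and 8.55 at 2 h, against 5.92, 5.09, 5.99 and 6.24 at 0 h, a change of 1.69 ± 0.43 (adjusted p = 0.0157). Of these animals Y31305, listed first, was lower at 2 h, and the other 3 were higher. RAB14 had 10.53, 10.66, 10.76 and 10.48 at 2 h, against 11.39, 11.11, 11.21 and 11.43 at 0 h, without overlap (−0.68 ± 0.19, adjusted p = 0.0288). RAB27A gained 0.56 ± 0.14 and RAB7A 0.93 ± 0.27. With the mean of their probe sets, RAB7A changed by 0.18 (limma adjusted p = 0.832), RAB12 by 0.60 (0.358) and RAB27A by 0.46 (0.141). RAB15, at 1.63 (0.0993), and RAB14, at −0.52 (0.102), were not called in that way either. After quantile normalization RAB7A (0.73, adjusted p = 0.0728) and RAB27A (0.39, adjusted p = 0.0759) were not called.

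RAB25 in the peptide control arm had 4.20, 9.01, 9.19 and 10.22 at 2 h, against 2.35, 3.61, 3.88 and 7.67 at 0 h. Every animal was higher at 2 h than at 0 h, but the change with SE 1.21 was not called (adjusted p = 0.0738); with the animal as a block its adjusted p was 0.00478. RAB10 (adjusted p without the block 0.0876), RAB13 (0.118), RAB21 (0.152), RAB24 (0.056), RAB30 (0.0996) and RAB5A (0.135) likewise passed at 2 h with the block. With the array set as a term in place of the block, 10 members were called higher at 2 h, beside 436 of all genes. At 4 h RAB10 (0.63 ± 0.18), RAB28 (1.16 ± 0.34) and RAB5A (0.53 ± 0.15) were called higher and RAB40A (−1.82 ± 0.51) lower. Without Y31305, 11 members were called higher at 2 h and 8 at 4 h, again with no all-gene share beside them. Without Y31306 or Y31308 none was called higher at 2 h, without Y31307 2 were, and without any of these 3 none was at 4 h. Between 2 and 8 h, 2 members (3.7%) were called, both lower, against 5.21% of all genes: RAB33A (−2.56 ± 0.43, adjusted p = 0.000349) and RAB24 (−1.004 ± 0.234, adjusted p = 0.00623). With the block, 4 were called, as without Y31305, and without any of the other 3 animals 1 was.

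In vehicle animals 0 members were called by limma at 2, 4 or 8 h, against 0%, 0.0125% and 0.0375% of all genes, while 7, 4 and 7 members had an unadjusted p below 0.05. Between 2 and 8 h, 0 members were called, against 0.00624% of all genes, with 3 at an unadjusted p below 0.05. RAB25 in vehicle animals had 3.62, 5.37, 9.20 and 7.48 at 2 h, against 4.65, 6.40, 5.80 and 7.96 at 0 h. The animal Y31303, with 9.20, was the only one higher at 2 h. The same animal had the highest value of its group at 2 h for RAB13 (9.77), RAB21 (9.63), RAB2B (10.63), RAB24 (12.01) and RAB7A (12.72), and the lowest for RAB30 (5.04) and RAB39B (4.24). Its neutrophil granule markers were also the highest of its arm at 2 h (11.17). RAB14 was −0.55 ± 0.19 at 2 h in this arm, RAB5A 0.36 ± 0.15 and RAB27A 0.41 ± 0.14, none called (adjusted p = 0.542, 0.678 and 0.552).

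The arms were then compared at the same hour. At 0 h, LR12 differed from peptide control in 0 members (0% of all genes) and from vehicle in 0 members (0.0187%), and peptide control from vehicle in 0 members (0%). Against peptide control, LR12 animals differed in 0 members at 2 h (2.95% of all genes), 1 at 4 h (1.35%) and 0 at 8 h (0.0187%), while 6, 8 and 10 members had an unadjusted p below 0.05. The 1 gene was RAB43 at 4 h, with 8.20 to 8.94 in LR12 animals (median 8.58), against 6.92, 7.88, 7.46 and 7.17 in peptide control animals. The groups did not overlap, and the difference was 1.21 ± 0.27 (adjusted p = 0.0194). With the animal as a block RAB27A was also called (0.44, adjusted p = 0.0407), and leaving out any 1 of Y31305, Y31307, Y31308, Y31312 or Y31313 left 0 calls. Without Y31305 the difference of RAB43 was 1.07 (adjusted p = 0.106), and the counts at 2 and 8 h were 0 as well.

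Against vehicle, LR12 animals differed in 14 members at 2 h (25.9%, 10 higher and 4 lower), against 15.9% of all genes, in 8 at 4 h (14.8%, 6 higher and 2 lower), against 11.9%, and in 2 at 8 h (3.7%), against 2.72%. The shares of members at 4 and 8 h lay near those of all genes. RAB25 led the higher genes at 2 h, by 3.56 ± 1.11 (adjusted p = 0.0217), with 9.60 to 10.71 in LR12 animals and 3.62, 5.37, 9.20 and 7.48 in vehicle animals, which did not overlap. RAB2B (1.88 ± 0.47), RAB33A (1.53 ± 0.39) and RAB21 (1.43 ± 0.49) were next in size. RAB30 was lower, by −2.32 ± 0.53 (adjusted p = 0.00194), with 2.95 to 5.64 in LR12 animals and 8.05, 7.14, 5.04 and 7.17 in vehicle animals, where only Y31303 lay within the LR12 range. RAB39B (−2.235 ± 0.529), RAB3C (−1.69 ± 0.50) and RAB33B (−1.03 ± 0.28) were lower too. At 4 h RAB25 (3.23 ± 1.11), RAB29 (1.95 ± 0.58), RAB43 (1.32 ± 0.27) and RAB4A (1.01 ± 0.20) led the higher genes, and RAB30 (−1.76 ± 0.53) and RAB40C (−1.46 ± 0.50) were lower. RAB4A at 4 h had 10.35 to 11.27 in LR12 animals, against 9.70, 9.75, 9.62 and 9.89 in vehicle animals, without overlap. RAB29, which acts at the Golgi and on stressed lysosomes, had a vehicle value of −0.38 in Y31301 at 4 h, beside 5.27, 5.79 and 5.65 in the other 3. At 8 h RAB10 was higher by 0.66 ± 0.17 (adjusted p = 0.0229) and RAB30 lower (−2.27 ± 0.53, adjusted p = 0.014). Without Y31303 the difference of RAB25 was 4.49 at 2 h and 4.14 at 4 h, and that of RAB30 was −2.93 at 2 h and −2.74 at 8 h. Without Y31301 that of RAB25 was 2.63 at 2 h (limma adjusted p = 0.108). That of RAB30 was then −1.92 at 2 h (0.0289) and −2.025 at 8 h (0.0975). With the mean of its probe sets, RAB30 differed by −1.04 at 4 h (limma adjusted p = 0.23) and −1.34 at 8 h (0.162). At 4 h the difference of RAB25 was 5.71 within the low-control arrays and 0.66 within the high ones (adjusted p = 0.93), and its call held without Y31303 or without Y31304 but was lost when any 1 of the other 8 animals was left out. RAB29 at 4 h was 0.47 without Y31301 (adjusted p = 0.528), 3.46 within the low-control arrays and 0.59 within the high ones. Without Y31303 the counts were 21, 18 and 11 at the 3 hours, and without Y31301 they were 5 at 2 h, 2 at 4 h and 0 at 8 h. These counts have no all-gene share beside them. Leaving out Y31302 gave 7, 4 and 0 members in that order of hours. The 4 h count was 4 or 5 without Y31304, Y31310, Y31311, Y31312 or Y31313, and the 8 h count was 0 without Y31304 or Y31312 and 1 without Y31310.

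Peptide control differed from vehicle in 0 members at 2, 4 and 8 h by limma, against 0%, 0.00624% and 0% of all genes. At these hours 7, 10 and 3 members had an unadjusted p below 0.05. Without Y31303, 5 members were called at 2 h and 8 at 4 h, and without Y31305, 4 at 2 h and 1 at 4 h. No all-gene shares are given for these counts.

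The change from 0 h was compared between arms as a difference of differences. LR12 and peptide control differed in 0 members at 2, 4 and 8 h, against 0% of all genes at each hour, with 2, 3 and 3 members at an unadjusted p below 0.05. LR12 and vehicle differed in 1 member at 2 h (1.85%), against 2.17% of all genes, in 0 at 4 h (0.218%), where 8 had an unadjusted p below 0.05, and in 0 at 8 h (0%). The gene at 2 h was RAB2B, whose change was 1.98 ± 0.42 in LR12 animals and −0.31 ± 0.51 in vehicle animals, a difference of 2.29 ± 0.66 (adjusted p = 0.0492). RAB2B at 2 h was 9.94 to 11.24 in LR12 animals, against 8.55, 7.85, 10.63 and 7.75 in vehicle animals, where Y31303 again was the high value. With the array set as a term, the difference was 1.88 (adjusted p = 0.0759), and without Y31303 it was 3.07. Of the animals left out in turn, the call held without Y31303 or Y31309 alone. With the animal as a block, RAB25 (5.22, adjusted p = 0.00387), RAB33A, RAB39B, RAB7A and RAB7B also differed at 2 h, and RAB25 and RAB4A at 4 h. Peptide control and vehicle differed in 0 members at 2, 4 and 8 h, against 0% of all genes.

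The genes that load, switch off and read RAB proteins were taken from a list of 143, of which 131 were measured. In LR12 animals 17 of them (13%) rose and 38 (29%) fell at 2 h, 13 (9.92%) rose and 40 (30.5%) fell at 4 h, and 14 (10.7%) rose and 23 (17.6%) fell at 8 h. The background shares of genes called higher were 10.1%, 10.8% and 8.65% in order of hour, and those called lower 21.9%, 26% and 20.4%, so the partners' shares lay near the background. In peptide control animals 4 (3.05%) rose and 1 (0.763%) fell at 2 h, 4 (3.05%) rose and 3 (2.29%) fell at 4 h, and 1 (0.763%) rose at 8 h. The shares of all genes called higher and lower in that arm were 2.2% and 1.1% at 2 h. They were 1.9% and 2.95% at 4 h, and 0.487% and 0.243% at 8 h, so the partners again lay near the background. In vehicle animals 0 partner genes were called at any hour. With arrays centred on their medians, 24 rose and 25 fell at 4 h in LR12 animals, where 2473 of all genes rose and 2691 fell.

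Of 9 genes that prenylate RABs or deliver them to membranes, 0 rose and 5 fell (55.6%, against 21.9% of all genes) at 2 h in LR12 animals, and 3 fell at 4 h and 1 at 8 h. RABGGTB, the catalytic subunit of RAB geranylgeranyl transferase, had a mean of 7.67 ± 0.47 at 2 h and 8.91 ± 0.39 at 0 h (SD, n = 6 each), a change of −1.24 ± 0.21 (adjusted p = 1.07e-05), lower in 6 of 6 animals. PRAF2, of the PRA1 family, changed by −0.78, and RABIF, which stabilises some RABs, was also lower. Of 39 exchange factor genes 5 rose (12.8%) and 9 fell (23.1%) at 2 h, near the shares of all genes, and 7 rose and 6 fell at 8 h. RIN2, an exchange factor for RAB5 proteins, rose by 3.63 in LR12 animals and by 3.72 in peptide control animals (adjusted p = 0.0122). DENND5A (1.95) and TRAPPC5 (0.83) also rose, while MON1A (−1.98), of the complex that activates RAB7, MADD (−1.68), which activates RAB3 and RAB27 proteins, and DENND5B (−1.38) fell.

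Of 34 genes of GTPase-activating proteins 4 rose (11.8%) and 9 fell (26.5%) at 2 h in LR12 animals, near the shares of all genes, while 5 rose and 14 fell at 4 h and 6 rose and 6 fell at 8 h. TBC1D22B (0.998), TBC1D2 (0.99), which acts on RAB7, and TBC1D24 (0.71) rose. TBC1D10A, which acts on RAB27A and RAB35, changed by −1.85 in LR12 animals and by −1.89 in peptide control animals (adjusted p = 0.00638), and TBC1D9 (−1.69) and TBC1D13 (−1.14) fell. Of 49 effector genes 8 rose (16.3%) and 15 fell (30.6%) at 2 h, 2 rose and 15 fell at 4 h, and 1 rose and 10 fell at 8 h. RILPL2 (1.45), EHBP1L1 (1.26) and MICAL1 (1.09) rose in LR12 animals, and were called higher in peptide control animals too, by 0.97, 1.17 and 0.88. SYTL2, which binds RAB27A (−2.91), RAB11FIP4, which binds RAB11 (−2.91), and RILPL1 (−2.12) fell.

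**Figure D5:**
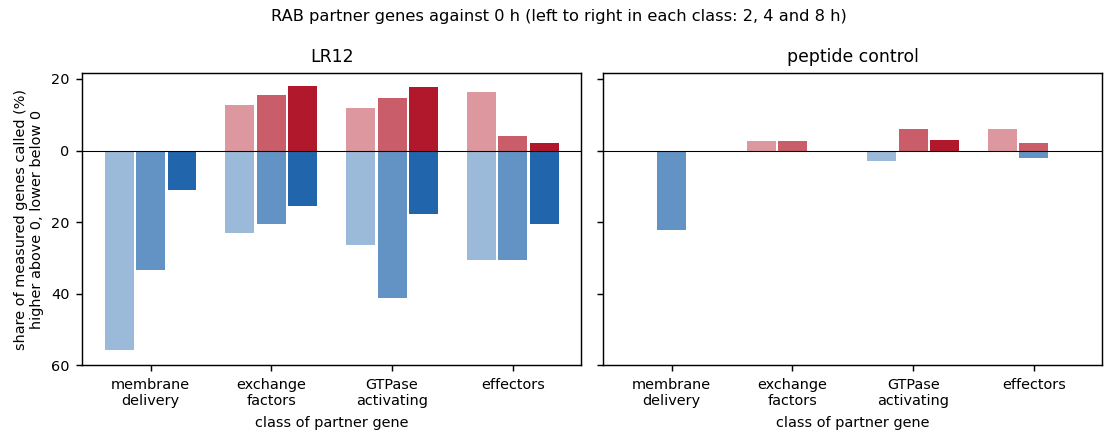
Percent of the genes of each partner class (membrane delivery, exchange factors, GTPase-activating proteins, effectors) called higher and lower than 0 h at 2, 4 and 8 h in the LR12 and peptide control arms. In LR12 animals at 2 h, 0 and 5 of 9 membrane delivery genes, 5 and 9 of 39 exchange factors, 4 and 9 of 34 GTPase-activating proteins and 8 and 15 of 49 effectors were higher and lower.

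Of the 54 members, 39 were called in at least 1 comparison and 15 in none. These 15 were RAB11A, RAB17, RAB18, RAB20, RAB26, RAB27B, RAB35, RAB36, RAB39A, RAB40B, RAB4B, RAB5B, RAB5C, RAB6A and RAB8A, and their changes from 0 h in LR12 animals ran between −1.11 (RAB27B at 4 h) and 0.85 (RAB4B at 4 h). RAB5B and RAB5C, the relatives of RAB5A on early endosomes, changed by 0.28 ± 0.42 and 0.22 ± 0.19 at 2 h (adjusted p = 0.67 and 0.409). RAB27B, the relative of RAB27A in granule secretion, changed by −0.33 ± 0.48 at 2 h and by −1.11 ± 0.48 at 4 h (adjusted p = 0.0622). RAB6A, the general Golgi relative of RAB6B, changed by 0.65 ± 0.33 at 8 h (adjusted p = 0.14). Called relatives of the named genes included RAB22A (−0.94 ± 0.33 at 2 h), RAB9A (−0.58 ± 0.22 at 2 h), RAB11B (−0.70 ± 0.21 at 4 h) and RAB2A (0.57 ± 0.13 at 4 h and 0.71 ± 0.13 at 8 h). These relatives were given after their values had been seen.

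Of the 54 members, 33 had another kept probe set. At 2 h the called members of the LR12 arm had 37 other probe sets, of which 34 moved the same way, 17 were called so and 0 were called the opposite way. At 4 h these numbers were 42, 39, 19 and 1, the opposite one being a second probe set of RAB21. RAB18, of lipid droplets and the endoplasmic reticulum and chosen after its values were seen, was read by a probe set that changed by −0.21 at 4 h in LR12 animals (adjusted p = 0.517). In a fit over all kept probe sets, 4 other probe sets of the gene were called higher, with changes of 1.78, 0.79, 1.47 and 1.98. RAB8B, not called at 2 h, had another probe set that rose by 2.14, and RAB31 had one that rose by 1.08. The same probe set was followed across samples in every comparison above.

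With the animal as a block, RAB1A, RAB1B and RAB8B were also called higher at 2 h in LR12 animals, RAB27B, RAB32, RAB22A and RAB40A were also called at 4 h, and RAB11B, RAB23 and RAB27B at 8 h. Under 3 other scalings 20 of the 26 calls at 2 h, 24 of 26 at 4 h and 17 of 20 at 8 h remained. The calls lost under at least 1 of them were RAB12, RAB22A, RAB31, RAB40C, RAB4A and RAB9A at 2 h, RAB11B and RAB7B at 4 h, and RAB3C, RAB6B and RAB7A at 8 h. With each LR12 animal left out in turn, 17 of 26, 18 of 26 and 12 of 20 calls held every time. Those that did not were RAB12, RAB22A, RAB23, RAB31, RAB40C, RAB4A, RAB7B, RAB9A and RAB9B at 2 h, RAB11B, RAB1B, RAB21, RAB28, RAB31, RAB33B, RAB7B and RAB8B at 4 h, and RAB28, RAB32, RAB3C, RAB43, RAB6B, RAB7A, RAB8B and RAB9B at 8 h. Of the 7 and 4 peptide control calls at 2 and 4 h, 0 held every time. Without Y31313 or Y31314, 6 members were called lower at 2 h, and without Y31312, 2 at 8 h.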

How the data were processed

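Blood RNA of 14 macaques at 4 times was read on 56 arrays. Per the labels, total RNA from PAXgene tubes was made into biotinylated cDNA with a NuGEN whole blood kit. The deposited values are array intensities on a linear scale; the submitters' processing notes name MAS5, without version or settings, and the mean trimmed by 2% lay between 150.03 and 150.04 on every array. Gene names came from the array platform's annotation, in which 41097 of 54675 probe sets had 1 symbol, 1801 several and 11777 none; 53 of the 54 members carried a symbol of the macaque RefSeq gene table (T2T-MFA8v1.1). No sequences were used here.

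Values were put on the log2 scale with no further normalization. Probe sets above the array median (12.9 to 23.5, linear scale) on at least 4 arrays were kept (38826), and each gene was read by the one with the highest mean. One linear model over 12 groups of arm and hour was fitted to all genes with limma 3.58.1 in R 4.3.3 (prior variance trend, robust, two-sided, no block), for 33 comparisons. Alternatives were 3 other scalings (median centring, quantile normalization, an offset of 16), other filters, the array set as a term or a split, the mean of probe sets, plain moderation, each animal left out, and the animal as a block (statmod 1.5.0, correlation 0.221). The animals pair the arrays per the labels: deviations from group means correlated at 0.18 on average within an animal and −0.03 between animals. Precision is limited by the number of arrays. The steps were tested on simulated data.

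The members, roles, partner and marker lists were chosen with earlier results of these data known. Members named with values were RABs of well-known leukocyte or general roles, called or not, the called members with the 6 largest rises and falls at each hour in the LR12 arm, at most 4 per direction in other comparisons, and the 3 largest rises and falls at 2 h per partner class.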

Additional observations from a re-analysis of the deposited data

Results flagged for a closer look

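Each named member was examined in each of the 12 groups for an animal whose gap to its nearest neighbour, over the group's range, passed Dixon's critical value. Of 444 such group values 34 passed (7.66%), where chance gives about 1 in 20, and 10 of them came from the peptide control animal Y31305 and 6 from the vehicle animal Y31303.

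Y31305 stood low in the peptide control arm at 2 h for RAB13 (5.15), RAB2B (8.01) and RAB7A (12.46), at 4 h for RAB20 (0.56) and RAB7A (11.91), and at 8 h for RAB10 (11.68), RAB21 (7.06) and RAB2B (7.74). It stood high for RAB7B at 4 h (5.66) and RAB37 at 8 h (7.37). Y31303 stood high in the vehicle arm at 2 h for RAB13 (9.77), RAB21 (9.63), RAB24 (12.01) and RAB23 (4.48), and low for RAB39B at 2 h (4.24) and RAB23 at 4 h (−0.30).

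Elsewhere in the peptide control arm, Y31306 differed for RAB11A at 2 h (13.11) and RAB28 at 8 h (8.92), Y31307 for RAB15 at 0 h (3.25) and RAB37 at 4 h (4.48), and Y31308 for RAB1A at 0 h (12.89), RAB30 at 2 h (4.43) and RAB11A at 8 h (13.00). In the LR12 arm, Y31310 differed for RAB14 at 0 h (11.49) and RAB23 at 8 h (0.31), Y31313 for RAB23 at 4 h (1.51), Y31312 for RAB37 at 0 h (5.68), Y31309 for RAB33B at 8 h (6.82), and Y31314 for RAB3A at 2 h (9.32) and 8 h (9.51) and for RAB8A at 4 h (10.88). In the vehicle arm, Y31304 differed for RAB33B at 0 h (7.02) and RAB43 at 8 h (6.83), and Y31301 for RAB29 at 4 h (−0.38). The change of RAB2B from 0 h to 2 h differed between the LR12 and vehicle arms by the test of the difference itself (2.29, limma adjusted p = 0.0492).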

How the results depend on the processing

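Of the 125 called values of members over all comparisons, 0 reversed under the alternatives run. All 125 passed again under the offset and with the animal as a block, 120 with the array set as a term, 119 without the filter, 115 with plain moderation, 110 with centred arrays, 106 after quantile normalization and 92 with the mean of probe sets. Within the low-control arrays 96 passed and 15 did not, within the high-control arrays 0 passed and 15 did not, and with 1 animal left out 615 results passed and 213 did not. The main counts that moved by over 1.5 times were as follows, with the cause not tested. LR12 against peptide control at 2 h (0 members) gave 1 with the array set and 1 with the mean of probe sets; at 4 h (1) it gave 2 after quantile normalization, 2 with the block, 2 with the array set and 0 within the high-control arrays. LR12 against vehicle at 4 h (8) gave 13 with the array set, 3 with the mean of probe sets and 0 within the high set; at 8 h (2) it gave 4, 1, 9 within the low set and 0 within the high set. The difference in change at 2 h (1) gave 0 with centring, quantile, no filter, array set, mean of probe sets, plain moderation and within the low set, 2 with the offset, 2 with a filter at 28 arrays and 6 with the block; at 4 h (0) it gave 2 with the block and 2 within the low set. Peptide control at 8 h against 2 h (2) gave 4 after quantile normalization and 4 with the block.

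Members called higher in peptide control animals at 2 h (6) became 12 with the block, 10 with the array set and 2 with the mean of probe sets; at 4 h (3) they became 11 with centring, 5 with the filter at 28 arrays, 12 with the block, 1 with the mean of probe sets, 1 with plain moderation and 0 within the high set; at 8 h (0) they became 2, 1 (quantile), 6 (block), 1 (array set) and 1 (high set). Members called lower in LR12 animals at 8 h (5) became 3 with centring, 8 with the block, 8 with the mean of probe sets and 3 within the low set. Those called lower in peptide control animals at 2 h (1) became 0 with centring, 2 with the block and 0 with the mean of probe sets, and at 4 h (1) 0, 4 and 2, with 0 by quantile and within the high set. The all-gene counts of the peptide control arm also rose with the block, at 2 h from 352 higher and 176 lower to 700 and 523.

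Partner genes called higher in LR12 animals at 4 h (13) became 24 with centring and 22 by quantile, and at 8 h (14) 22 with centring; those called lower at 2 h (38) became 25 by quantile, at 4 h (40) 25 and at 8 h (23) 10 with centring. In peptide control animals the higher ones became 8 with the block at 2 h (4); 7 with centring, 7 with the block, 1 with the mean of probe sets and 0 in the high set at 4 h (4); and 2 by quantile, with the filter, the array set and the high set, and 3 with the block at 8 h (1). The lower ones became 3 with the block and 0 with the mean of probe sets at 2 h (1); 0 with centring, 5 with the filter, 18 with the block, 8 with the mean of probe sets and 0 in the high set at 4 h (3); and 2 with the block at 8 h (0).

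With each animal left out in turn, LR12 against peptide control ran over 0 to 1 at 2 h and 0 to 2 at 4 h, LR12 against vehicle over 5 to 21, 2 to 18 and 0 to 11, their difference in change over 0 to 5, 0 to 3 and 0 to 1, and peptide control against vehicle over 0 to 5 at 2 h and 0 to 8 at 4 h. Members higher in peptide control animals ran over 0 to 11, 0 to 8 and 0 to 3, those lower over 0 to 0 at 2 h and 0 to 3 at 4 h, and the 8 h against 2 h count over 1 to 4. Members lower in LR12 animals ran over 6 to 9 at 2 h and 2 to 5 at 8 h. Partner genes higher in LR12 animals ran over 9 to 15 at 2 h and 9 to 12 at 8 h, 9 being without Y31312. In peptide control animals partners higher ran over 0 to 6, 0 to 5 and 0 to 3, and partners lower over 0 to 2, 0 to 19 (19 without Y31305) and 0 to 3. The number of arrays per arm and the human-designed probes limit what could be detected.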
